A study of Mus musculus with 6 samples.

Results

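The NSC described here are the control cultures of the series, primary neural stem cells prepared from wild-type mouse embryos at E16.5, and their transcriptome was measured by RNASeq in 2 cultures. These 2 libraries, replicates 1 and 2, were chosen by their labels and are 2 of the 6 samples of the series. The other samples are 2 RNASeq libraries of NSC Bmi1Over, labelled STOPFloxBmi1;NestinCre, and 1 H3K27me3 ChIPSeq library of each genotype, none of which is used here. The control cultures carried neither the transgene nor a treatment. The cells came from the cerebral hemispheres and were grown in medium with EGF and FGF, so that levels are those of cultured cells and not of tissue. Whether the RNASeq cultures grew as neurospheres or as an adherent layer is not given in the sources used here. The study describes its NSC cultures as biologically independent, while the number of embryos behind each culture is not given. The question is which genes, lineages and brain regions the control cells represent, and as there is 1 group of 2 cultures, no test was made and each value is given for both cultures.

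In the embryonic forebrain, radial glia line the ventricles and the subventricular zone lies next to them. Neural stem cells there divide to give neurons, and later astrocytes and oligodendrocytes. They are known by intermediate filaments such as nestin and vimentin, by transcription factors of the SoxB1 group and by Notch targets of the Hes family. In culture, EGF and FGF keep them dividing, and removal of these factors lets them differentiate.

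The files list the reads counted on each gene. Of 40631088 reads in replicate 1 and 35218551 in replicate 2, 29325893 (72.2%) and 24578802 (69.8%) were counted on genes. Levels of a gene in the 2 cultures are given in CPM, the reads on the gene scaled to a common total of counted reads, where 1 CPM was 29.3 reads in replicate 1 and 24.6 in replicate 2. Levels of different genes are compared in TPM, in which counts are divided by the length of the gene's annotated exons before scaling. A gene was called detected at 1 CPM or more in both cultures. A count of 0 allows a level of up to 0.102 CPM in replicate 1 and 0.122 CPM in replicate 2, taking 3 counts as the limit, which covers counting error only.

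The genes that define the cells by name were all abundant. Fabp7, a fatty acid binding protein of radial glia, was at 4528 TPM in replicate 1 and 4295 TPM in replicate 2, a mean of 4411 ± 165 TPM (SD, n = 2 here and throughout). Olig2, a transcription factor of ventral progenitors and the oligodendrocyte lineage, was at 1308 and 1386 TPM. Vim, which encodes vimentin, was at 1204 and 1208 TPM. Nes, which encodes nestin, was at 572.0 and 673.8 TPM. Sox2, a SoxB1 factor of the stem cell state, was at 507.4 and 396.4 TPM. The order of the 5 genes was the same in both cultures, and the lowest of them, Sox2, stood at percentile 97.9 of the detected genes by TPM. In the other unit, CPM, Fabp7 was at 1519 and 1466, Vim at 1533 and 1564, Nes at 985 and 1180, Olig2 at 888 and 957, and Sox2 at 280.1 and 222.6. Their exons share no bases with other annotated genes.

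In GRCm38, the build of the files, the GENCODE annotation places Nes on chromosome 3 from 87971078 to 87980451, Sox2 on chromosome 3 from 34650405 to 34652461, Fabp7 on chromosome 10 from 57784881 to 57788450, Olig2 on chromosome 16 from 91225457 to 91228677 and Vim on chromosome 2 from 13573927 to 13582826. To show what lies in front of 4 of these highly expressed genes, the RefSeq promoter sequence is printed up to the base before the earlier of the RefSeq and GENCODE starts. These are chr3:87970843-87971077 for Nes, chr3:34649745-34649994 for Sox2, chr10:57784673-57784880 for Fabp7 and chr16:91225300-91225456 for Olig2, all on the plus strand and read 5′ to 3′. Capitals mark matches on either strand to the CCAAT box (CCAAT), the GC box (GGGCGG) and the SOX-type words ACAAAG and ACAATG. The TATA box (TATAAA), the E-box CAGCTG and the RBPJ word GTGGGAA were searched as well and are not among the letters printed.
Nes: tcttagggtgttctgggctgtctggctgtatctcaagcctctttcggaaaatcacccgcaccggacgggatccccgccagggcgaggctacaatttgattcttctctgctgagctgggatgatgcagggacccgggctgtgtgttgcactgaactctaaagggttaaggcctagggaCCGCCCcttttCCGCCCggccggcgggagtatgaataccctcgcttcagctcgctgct
Sox2: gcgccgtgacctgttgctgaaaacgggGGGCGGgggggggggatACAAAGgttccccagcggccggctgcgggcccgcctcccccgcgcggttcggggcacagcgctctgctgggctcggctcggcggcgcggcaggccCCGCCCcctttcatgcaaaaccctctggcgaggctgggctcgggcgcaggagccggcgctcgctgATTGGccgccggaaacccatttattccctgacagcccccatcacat
Fabp7: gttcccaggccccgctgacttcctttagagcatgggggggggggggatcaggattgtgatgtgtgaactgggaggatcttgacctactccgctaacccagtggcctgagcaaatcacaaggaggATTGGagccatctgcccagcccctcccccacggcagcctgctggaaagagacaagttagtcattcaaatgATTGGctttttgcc
Olig2: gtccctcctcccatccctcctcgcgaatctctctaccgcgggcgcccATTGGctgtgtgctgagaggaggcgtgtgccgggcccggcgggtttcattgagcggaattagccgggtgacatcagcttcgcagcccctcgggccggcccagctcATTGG
The printed stretch of Nes held 2 GC boxes, 73 and 62 bases before the RefSeq start. Sox2 held 2 GC boxes, an inverted CCAAT box 46 bases before the start and the word ACAAAG 206 bases before it. Fabp7 held 2 inverted CCAAT boxes, 126 and 56 bases before the start, and no GC box. It was also poor in CpG, with 3 CpG in 208 bases and an observed over expected ratio of 0.183. The ratio was 0.691 for Nes, 0.833 for Sox2 and 0.799 for Olig2. Olig2 held 2 inverted CCAAT boxes, 203 and 98 bases before the start. Nearer its RefSeq start, in bases that GENCODE places inside the gene, lay a TATA box, 2 GC boxes and the word ACAATG. A match is a description of letters and not a site.

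Across the wider list of neural stem cell and radial glia genes, 15 of 15 members were detected, with mean levels from 3.09 to 4411 TPM and 8 of them at 100 TPM or more. Among all protein-coding genes 55.1% were detected, but the members of the list were chosen with earlier results of these data known. Slc1a3, the glial glutamate transporter, was at 863.8 and 983.0 TPM, and Ptprz1, a receptor phosphatase of radial glia that binds pleiotrophin, at 899.6 and 911.9 TPM. Hes1 and Hes5, Notch targets that hold back neuronal differentiation, were at 77.4 ± 14.9 TPM and 25.2 ± 6.35 TPM. For Hes5, 31.8% of the exon sequence is shared with another annotated gene, and reads there were counted on neither. The lowest members were Pax6 at 12.4 ± 1.15 TPM, Gli3 at 8.24 ± 0.51 TPM and Prom1 at 3.09 ± 0.67 TPM.

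The oligodendrocyte precursor list was detected in 10 of 10 members, but its levels were uneven. Olig1, the partner of Olig2, was at 2633 and 2377 TPM, higher than any stem cell marker but Fabp7. Lhfpl3 and Cspg4, the NG2 proteoglycan, were at 77.8 and 104.6 TPM and at 66.3 and 85.2 TPM. Sox10 and Pdgfra, which define committed precursors, were low, at 3.29 and 1.95 TPM and at 11.1 and 12.9 TPM. Olig2 exceeded Sox10 by 397.4 times in replicate 1 and 709.3 times in replicate 2 in TPM. Of the mature oligodendrocyte list 6 of 10 members were detected, a share near that of all protein-coding genes. Cnp led at 100.7 and 73.5 TPM, while Mbp, a main protein of myelin, was at 0.990 and 0.510 TPM, and Mog, Mag and Mobp had at most 2 reads in either culture.

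Of the astrocyte list 12 of 14 members were detected, and 6 were at 100 TPM or more. Sparcl1, a secreted matrix protein, was at 1126 and 1086 TPM, Atp1b2, a sodium pump subunit, at 503.4 and 462.3 TPM, Apoe at 247.4 and 139.6 TPM and Aldoc at 138.8 and 95.6 TPM. The defining filament of mature astrocytes, Gfap, had 22 reads in replicate 1 and 13 in replicate 2, and Gjb6, a gap junction protein, had 6 and 0. Aqp4, the water channel of astrocyte endfeet, was at 2.79 and 3.18 TPM. High levels of Sparcl1 and Atp1b2 thus stood beside few or no reads of Gfap and Gjb6. Other known astrocyte genes lay between these. Aldh1l1 was at 108.5 and 78.6 TPM, Slc1a2 at 59.9 and 64.0 TPM, S100b at 35.6 and 26.8 TPM and Gja1 at 30.9 and 24.5 TPM.

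Neuronal genes were mostly low. Of the neuron list 9 of 14 members were detected, beside 55.1% of all protein-coding genes. Only Map2, at 224.1 and 201.3 TPM, and Tubb3, at 52.9 and 51.1 TPM, exceeded 10 TPM on average. Syt1 and Gad1 followed at 8.34 ± 5.59 and 6.88 ± 2.83 TPM. Dcx, of migrating young neurons, was at 2.88 and 2.32 TPM. Stmn2 had 2 reads and 0, Neurod6 had none in either culture, and Tbr1, of deep-layer cortical neurons, had 5 and 10. Of the list of intermediate progenitor and proneural genes 6 of 11 members were detected, again near the 55.1% of all protein-coding genes, among them Hes6 at 172.0 ± 34.5 TPM, Btg2 at 71.3 ± 13.9 TPM and the Notch ligand Dll1 at 48.5 ± 5.61 TPM. Neurog1, Neurog2 and Eomes, factors of the dorsal cortex, were not detected, whereas Insm1 of the same list was at 10.8 and 9.09 TPM. Neurog1 had no read, Neurog2 had 20 reads in replicate 1 and 2 in replicate 2, and Eomes had 2 and 7.

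**Figure D1:**
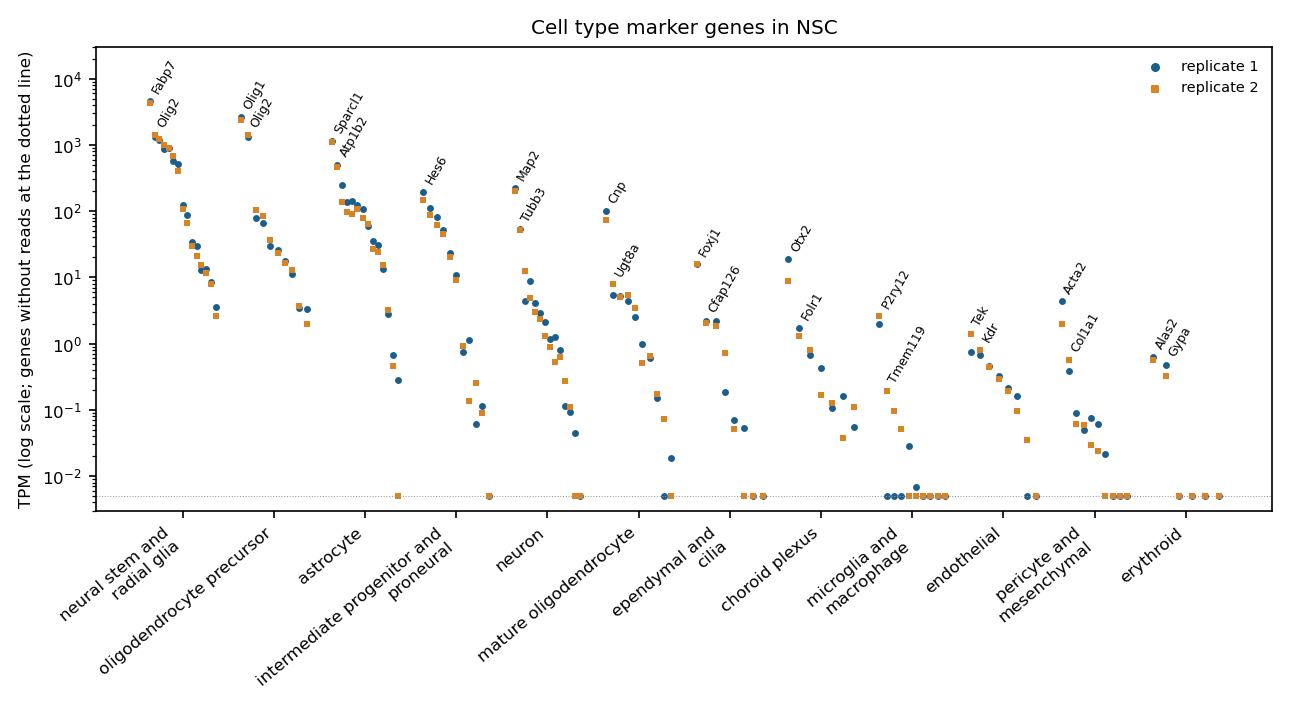
Marker genes by cell type list, with TPM of every member on a log scale and a point for each of the 2 cultures, in which genes without reads sit on the dotted line. The members of the neural stem and radial glia list lie from about 3 to 4411 TPM, while most members of the blood, vessel and microglia lists lie under 1 TPM.

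Cells of other origins left little trace, and the shares of their lists stand beside the 55.1% of all protein-coding genes. Of the microglia and macrophage list 1 of 10 members was detected, P2ry12 at 2.00 and 2.58 TPM, and the other 9, including Cx3cr1, Aif1, Csf1r and the 3 C1q genes, had at most 3 reads. Of the endothelial list 3 of 8 were detected, Kdr, Flt1 and Vwf, all under 1 TPM on average, and Cldn5 had no read. Of the pericyte and mesenchymal list 1 of 10 was detected, Acta2 at 4.34 and 1.97 TPM, and Pdgfrb, Rgs5 and Lum had no read. None of the 6 erythroid genes was detected, and the 4 globin genes had no read. Of the choroid plexus list 1 of 7 was detected, the transcription factor Otx2 at 18.7 and 8.93 TPM, while Ttr, the transthyretin gene that defines this epithelium, had 1 read in each culture. Of the ependymal and cilia list 1 of 8 was detected, Foxj1, the regulator of motile cilia, at 15.9 and 15.7 TPM, and Pifo and Tmem212 had no read. Of the neural crest and Schwann list 3 of 8 were detected, of which Ednrb, at 469.2 ± 16.2 TPM, is also made by radial glia, and Foxd3 and Tfap2b had no read. Of the pluripotent cell list Klf4 was at 23.9 ± 3.84 TPM and Esrrb at 3.01 ± 0.45 TPM, and the other 6 of 8 were not detected, Pou5f1 without a read. In bulk RNA, fewer cells of a type and less RNA per cell cannot be told apart.

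Transcription factors of the forebrain were expressed. Of the pan-telencephalic list 6 of 6 members were detected. Lhx2 was at 51.6 and 50.3 TPM, Nr2f1 at 38.2 and 33.9 TPM, Otx1 at 19.1 and 21.2 TPM, Emx2 at 20.6 and 19.5 TPM and Six3 at 10.3 and 5.31 TPM. Of the 6 members, Six3 differed most between the cultures.

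Dorsal and ventral genes of the telencephalon were each detected in part, and the shares are to be read beside the 55.1% of all protein-coding genes. Of the dorsal telencephalon list 4 of 12 members were detected, Emx2, Dmrta2, Pax6 and Gli3, with mean levels from 8.24 to 20.1 TPM. Emx1, which marks the cortical primordium, had 4 reads in replicate 1 and none in replicate 2, and Fezf2 had none and 1. Of the ventral telencephalon list 7 of 14 were detected. Among them were Nkx6-2 at 9.33 and 9.53 TPM, Gsx1 at 4.52 and 5.21 TPM and Sp8 at 3.35 and 2.91 TPM. Dlx2, of the ganglionic eminences, was at 2.31 and 1.67 TPM. Nkx2-1, of the medial eminence, had 12 and 8 reads, Gsx2 had 6 and 0, and Dlx5, Lhx8 and Isl1 had no read. Some factors of each territory were thus present at low to moderate levels, and others of the same territory were at or near the floor.

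Genes of more caudal regions and of the midline ranged from lists without a detected member to lists detected in part. These shares, too, are to be read beside the 55.1% of all protein-coding genes. None of the 39 Hox genes, which pattern the hindbrain and spinal cord, was detected. Of the 39, 35 had no read, and Hoxa3, Hoxa4 and Hoxa7 had 1 or 2 reads in all. Of the midbrain and hindbrain list 3 of 13 were detected, among them Egr2 at 19.6 and 10.3 TPM and En2 at 5.57 and 4.34 TPM, while Pax5, Atoh1 and Ptf1a had no read. Of the diencephalon list 4 of 9 were detected, led by Tcf7l2 at 12.8 and 11.3 TPM, followed by Gbx2 at 7.24 and 8.42 TPM, Barhl2 at 4.34 and 3.67 TPM and Irx1 at 4.27 and 3.47 TPM. None of the 9 members of the roof plate list reached 1 CPM in both cultures, and Wnt1, Wnt3a and Wnt8b had no read. Of the floor plate list 2 of 6 were detected, the guidance cue Ntn1 at 158.8 and 192.1 TPM and Nkx2-2 at 26.1 and 23.7 TPM, whereas Foxa2 had no read and Shh had 5 and 14.

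**Figure D2:**
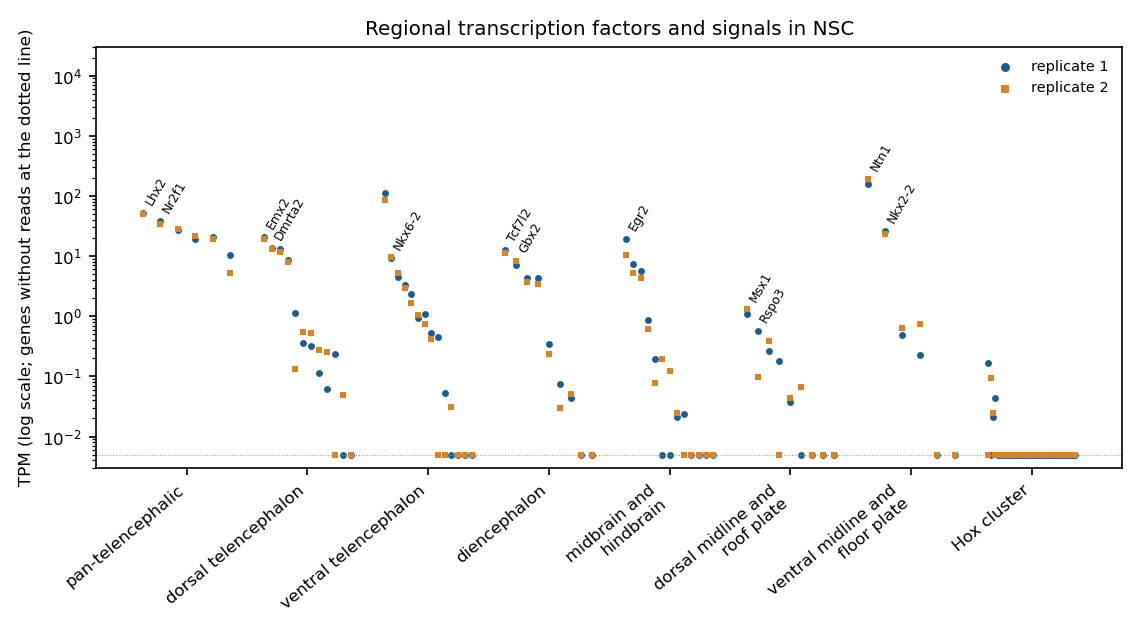
Regional genes by list, with TPM of every member on a log scale and a point for each of the 2 cultures, in which genes without reads sit on the dotted line. All 6 pan-telencephalic genes lie above 5 TPM, and 35 of the 39 Hox genes sit on the line.

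Of the Sox transcription factors 13 of 19 were detected. After Sox2 came Sox8 at 295.1 and 241.4 TPM, Sox9 at 121.6 and 108.6 TPM and Sox3 at 120.9 and 93.4 TPM. Sox8 and Sox9 belong with Sox10 to the SoxE group, which acts in glia. The neuronal SoxC factors Sox4, Sox11 and Sox12 were at 106.7, 58.6 and 70.5 TPM on average, but 54.6% of the exon sequence of Sox4 is shared with another gene. Sox21, Sox6, Sox1, Sox13, Sox5 and Sox10 followed, from 54.4 down to 2.62 TPM. Sox7, Sox14 and Sox17 had no read, and Sox15, Sox18 and Sox30 had at most 6. All 13 detected Sox genes were lower in replicate 2 in CPM, by a median of 0.26 on the log2 scale, and none reached a 2-fold difference. Over all genes, 8236 of the 13040 detected were lower in replicate 2 on this scale, with a median log2 difference of −0.07. With TMM, which scales libraries to a common majority of genes, or with DESeq2's size factors, 12 of the 13 were lower and Sox6 was not.

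Other families of progenitor genes were detected in full or in part, beside 55.1% of all protein-coding genes. All 4 Nfi genes, which promote gliogenesis, were detected, from Nfix at 120.5 ± 14.1 TPM to Nfic at 33.3 ± 2.56 TPM, with Nfib at 75.6 and Nfia at 36.3 TPM on average. All 4 Id genes, inhibitors of proneural factors, were detected, and Id3 at 246.9 ± 8.92 TPM exceeded Id1, Id2 and Id4 at 58.3, 48.2 and 2.87 TPM. All 4 Pou3 genes were detected, Pou3f3 at 129.8 ± 8.31 TPM and Pou3f4, Pou3f2 and Pou3f1 at 47.6, 31.5 and 24.8 TPM. Of the Hes and Hey family 5 of 9 were detected, with Hey1 at 28.7 ± 7.44 TPM and Hey2 at 1.52 ± 0.63 TPM beside Hes6, Hes1 and Hes5. Heyl, Hes3 and Hes7 had at most 8 reads, and Hes2 had none. Of the fatty acid binding proteins, only Fabp7 and Fabp5 of 9 were detected. Fabp7 exceeded Fabp5, at 494.2 and 395.7 TPM, by 9.16 times in replicate 1 and 10.9 times in replicate 2, Fabp3 had 26 and 22 reads, and each of the other 6 had at most 1.

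The receptors for the growth factors of the medium were expressed. Egfr was at 203.6 and 202.0 TPM, Fgfr1 at 149.6 and 164.1 TPM, and Fgfr3 at 140.6 and 91.6 TPM. Erbb2 was at 18.6 ± 0.11 TPM, Fgfr2 and Erbb4 were lower, and Erbb3 and Fgfr4 had at most 14 reads, which left 6 of 8 receptors detected. Cell cycle genes were expressed throughout. All 16 genes of the DNA replication list were detected, from 21.3 to 464.1 TPM, led by Pcna, the sliding clamp, at 478.8 and 449.4 TPM, and followed by Rrm2, Mcm7 and Mcm5 at 353.4, 174.2 and 171.9 TPM on average. All 16 of the mitosis list were detected as well, from 45.0 to 363.7 TPM, and led by Mki67 at 339.5 and 387.8 TPM, Cdc20 at 295.4 and 295.9 TPM, Top2a at 308.4 and 271.8 TPM and Ccnb1 at 189.8 and 179.8 TPM. The 2 cultures were close in both lists, in which no gene differed by more than 0.22 on the log2 scale of CPM. All 7 Cdk inhibitors were detected too. Cdkn1a, which encodes p21, was at 311.8 and 283.6 TPM, Cdkn2c at 118.6 ± 10.4 TPM, Cdkn1b at 93.8 ± 15.8 TPM, and Cdkn2a, the gene of p16 and p19Arf, at 96.2 and 80.7 TPM. Of the replication-dependent histone genes, whose transcripts end in a stem-loop in place of a poly(A) tail, 7 of 64 were detected, and Hist1h2bc, the most abundant, was at 85.9 and 59.3 TPM.

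The transcriptome as a whole was broad. Of 50686 listed genes, 13040 were detected, and 25442 had no read in either culture. Replicate 1 spread 50% of its counted reads over 1143 genes and 90% over 6050, and replicate 2 over 1071 and 5929. The 70 genes at 1000 CPM or more took 13.7% and 15.3% of the reads, and the 2392 genes from 100 to 1000 CPM took 53.7% and 53.1%. Protein-coding genes received 98.2% and 98.0% of the reads, including 3.16% and 4.64% from the mitochondrial genome. The mitochondrial share holds hardly any reads of 6 of the 13 mitochondrial protein genes, as described below, and is no measure of their total. Of the detected genes, 12036 were protein-coding, out of 21841 listed, and 630 were long noncoding, out of 8162, with 1.46% and 1.56% of the reads. Pseudogenes gave 142 detected genes, and short structural or regulatory RNA 27. The median detected nuclear protein-coding gene was at 27.7 TPM and the median long noncoding gene at 5.58 TPM.

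The gene with the most reads in both cultures was mt-Co1, at 12673 and 16439 CPM. Of the 20 most abundant genes by mean CPM, 6 were mitochondrial, the others being mt-Cytb, mt-Nd1, mt-Nd2, mt-Nd5 and mt-Nd4. The translation factors Eef1a1 and Eef2 were at 5785 and 4877 CPM and at 2728 and 2402 CPM. Scd2, a fatty acid desaturase, was at 4480 and 4796 CPM and Ckb, the brain creatine kinase, at 4340 and 3937 CPM. The other protein-coding genes among the 20 were Serpine2 at 3076 and 3921 CPM, Ptprz1 at 3439 and 3547 CPM, Ptn, the pleiotrophin gene, at 2508 and 3114 CPM, Slc1a3, Gpm6b, Psap and the proteoglycan gene Bcan at 1571 and 1964 CPM, together with the chaperone gene Hsp90ab1 at 2266 and 2081 CPM. Per length, the 10 most abundant nuclear protein-coding genes were Eef1a1 at 7906 ± 1049 TPM, Rplp1, Ckb, Fabp7, Txn1, Igfbp2, Scd2, Rplp0, Ptn and Tmsb4x at 2929 ± 113 TPM. Fabp7 was therefore the most abundant of the stem cell markers and the fourth of these 10, after a translation factor, a ribosomal protein and a kinase.

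Long RNAs without a protein were among the most abundant as well. Xist, which coats the inactive X chromosome of female cells, was at 4590 and 4667 CPM, and of 4 genes on the Y chromosome with a read, only Gm47283 was detected, while the other 3 had at most 19 reads. Gm42047, annotated as a lincRNA on chromosome 8 from 121833247 to 121841178, was at 1744 and 2559 CPM. Its nearest detected neighbour, Klhdc4, lies 3678 bases away on the other strand at 40.5 CPM on average, and a gene model that spans the region, Gm20388, had no read. Of the fixed list of long noncoding RNAs 14 of 20 were detected, led by Xist, Malat1 at 513.9 and 523.2 TPM, Gas5 at 142.7 and 133.8 TPM and Snhg6 at 126.3 and 100.4 TPM. Snhg3 had no read, but 86.3% of its exon sequence is shared with another annotated gene, where reads were counted on neither. The most abundant genes of other RNA classes were AI506816 among processed transcripts at 554.5 and 711.1 CPM, Brip1os among antisense genes at 171.2 and 217.0 CPM, Gm49759 among models still to be experimentally tested at 82.6 and 70.5 CPM, Gm10736 among processed pseudogenes at 77.8 and 68.9 CPM, Ppp4r1l-ps among transcribed unprocessed pseudogenes at 46.5 and 45.2 CPM, 2810025M15Rik among transcribed processed pseudogenes at 82.1 and 77.2 CPM, 5830417I10Rik among unprocessed pseudogenes at 13.0 and 15.6 CPM, Peg13 among sense intronic genes at 35.6 and 43.0 CPM, B230354K17Rik among genes from bidirectional promoters at 28.6 and 24.1 CPM and Snora28 among snoRNAs at 4.64 and 3.30 CPM. As strand was not used, reads of an antisense gene and its partner cannot be told apart.

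Housekeeping groups set the upper range. Of the cytosolic ribosomal protein genes 79 of 83 were detected, with a median of 803.8 TPM and 77 of them at 100 TPM or more, led by Rplp1 at 6523 and 5355 TPM, Rplp0, Rps15 and Rpl36. The list was drawn by the form of the symbol and does not hold Rps3a1, a ribosomal protein gene noticed after its values were seen, which at 2630 and 2216 TPM lay above Rpl36. The other 4 of the list, named after their values were seen, were Rpl24, Rpl3l, Rpl10l and Rpl39l. Rpl24 had only 12 and 10 reads, and as reads that map to several places were left out of the counts, genes with near-identical copies are uncertain. All 5 translation elongation genes were detected, and after Eef1a1 and Eef2 came Eef1g and Eef1b2 at 744.3 ± 52.7 and 631.3 ± 93.0 TPM. All 17 cytoskeleton genes were detected, led by Tmsb4x, Tuba1a at 2164 and 1962 TPM, Actb at 2059 and 1982 TPM and Cfl1 at 2017 and 1800 TPM. All 20 members of a list made up mostly of secreted, matrix and surface genes of neural stem cells were detected, 17 of them at 100 TPM or more. Its highest member, Ckb, is a cytosolic kinase and no secreted or surface protein, and Dbi, at 889.8 TPM on average, encodes an acyl-CoA binding protein. After Ckb came Igfbp2, Ptn and Bcan, the last at 1441 and 1770 TPM. All 16 glycolysis genes were detected, from Pfkp at 14.1 ± 3.71 TPM to Ldha, lactate dehydrogenase A, at 1577 and 941.9 TPM, with Gapdh at 1509 and 984.8 TPM, Pkm at 1370 and 989.1 TPM and Eno1 at 1373 and 939.6 TPM.

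The mitochondrial genome encodes 13 proteins and its genes were read unevenly. Of these, 7 had between 19691 and 404061 reads, and the other 6 had between 0 and 13. The 6 genes, mt-Co2, mt-Atp8, mt-Atp6, mt-Co3, mt-Nd3 and mt-Nd4l, are neighbours along the genome among the protein genes. mt-Co1, just before them, was at 30569 and 38973 TPM, and mt-Nd4, just after them, at 4539 and 7272 TPM. When the mitochondrial genome was aligned to the nuclear chromosomes of GRCm38.p6, a copy of 4654 aligned bases was found on chromosome 1 from 24611535 to 24616188, on the minus strand, with 99.9% identity to mitochondrial positions 6390 to 11042. All 6 genes with few reads lie wholly within it. mt-Nd4 lies within it for 65.8% of its length and mt-Co1 for 31.3%, while the other protein genes lie outside it. Reads that STAR maps to more than 1 place were not counted on any gene, and such reads were 4.56% and 4.78% of all reads. How many of these came from this block was not tested, and the low counts of the 6 genes are no measure of their expression. The levels of mt-Nd4 and mt-Co1 were divided by their whole length, without a correction for the part within the copy.

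**Figure D3:**
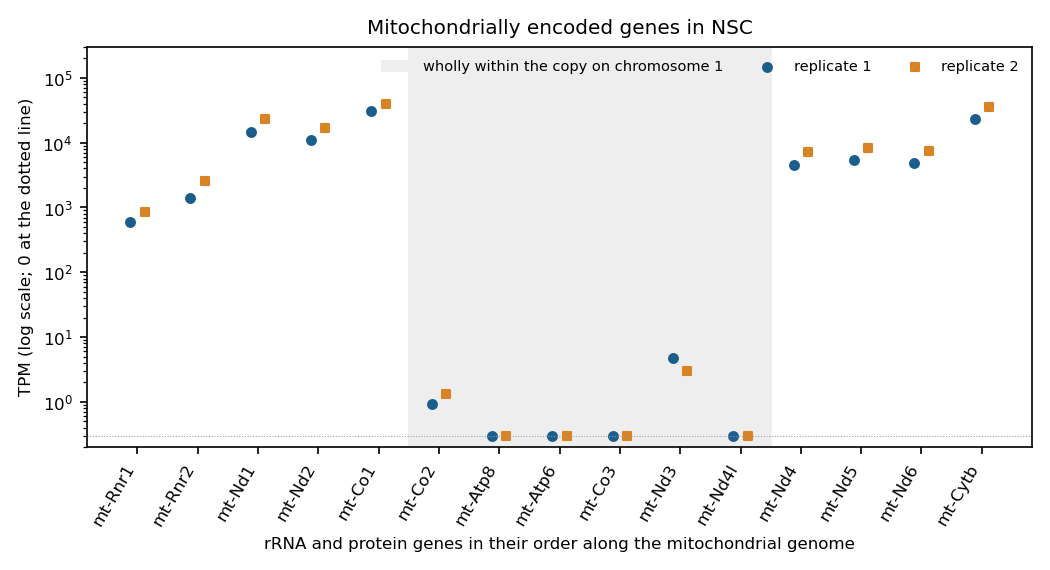
TPM on a log scale of the rRNA and protein genes of the mitochondrial genome, in their order along it, with a point for each of the 2 cultures and genes without reads on the dotted line. The 6 genes in the shaded block, wholly within the copy on chromosome 1, lie under 5 TPM, and the protein genes on both sides lie at 4539 TPM or more.

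The cultures were close. Across the 13040 detected genes, which are not independent replicates and share both libraries, Pearson's r of log2 CPM was 0.992 and Spearman's rho 0.993, and the SD of the log2 difference was 0.27. The biological coefficient of variation, the relative spread between cultures beyond counting error estimated by edgeR, was 10.8% with TMM scaling. At least 2-fold apart were 95 genes (0.729%), of which 23 (0.176%) were higher in replicate 2 and 72 (0.552%) in the other direction. With TMM scaling, 35 were higher in replicate 2 and 54 in replicate 1. Replicate 2 held the higher level for 36.8% of detected genes by library size and 49.5% with TMM, and the median log2 difference was −0.07 and −0.00165.

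**Figure D4:**
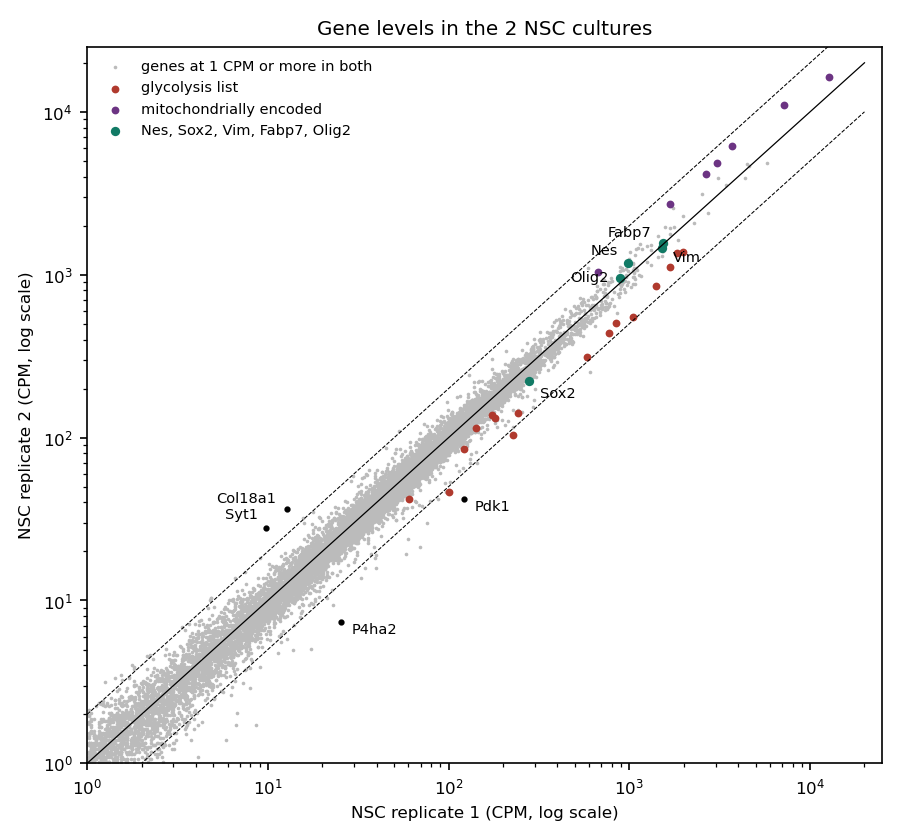
CPM of the 13040 detected genes in replicate 1 against replicate 2 on log axes, with a solid line of equality and dashed lines at 2-fold. The 5 markers of neural stem cells lie near the line, the glycolysis genes below it and the mitochondrially encoded genes above it.

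Of 9736 genes whose mean reached 10 CPM, 7 were 2-fold higher in replicate 2 and 20 in replicate 1, and the 5 furthest apart in each direction are named. Higher in replicate 1 were P4ha2, a collagen prolyl hydroxylase, at 25.3 against 7.40 CPM, Loxl2, a lysyl oxidase, at 17.2 against 5.04 CPM, Slc16a3, a lactate exporter, at 69.8 against 21.3 CPM, Bnip3, of mitophagy, at 58.3 against 19.3 CPM, and Pdk1, which restrains the entry of pyruvate into mitochondria, at 121.7 against 42.2 CPM. These are differences of 1.53 to 1.77 on the log2 scale. Higher in replicate 2 were Col18a1, a basement membrane collagen, at 36.5 against 12.7 CPM, Syt1, a synaptic vesicle protein, at 28.0 against 9.82 CPM, AI593442 at 13.8 against 6.62 CPM, the integrin gene Itga4 at 109.2 against 52.9 CPM and the protease gene Adamts5 at 32.2 against 15.6 CPM. With a single pair of cultures such differences have no replicate of their own and were not tested.

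Some lists differed between the cultures in a single direction. All 16 glycolysis genes were lower in replicate 2, by library size, TMM and DESeq2's size factors alike, with a median log2 difference of −0.65 against −0.07 over all detected genes. Pfkl, at 228.4 and 103.2 CPM, and Hk2, at 100.1 and 46.3 CPM, differed by more than 2-fold. All 7 detected mitochondrial protein genes, of which mt-Nd4 and mt-Co1 lie partly within the nuclear copy, were higher in replicate 2 under the 3 scalings. The median was 0.64, and none reached 2-fold. The mitochondrial rRNA genes were also higher in replicate 2, mt-Rnr1 at 152.5 and 222.5 CPM and mt-Rnr2 at 589.8 and 1094 CPM, as was the nuclear rRNA gene model CT010467.1 at 174.0 and 304.7 CPM, of whose exon sequence 73.9% is shared with other models. Nuclear genes annotated as rRNA took 0.0180% of the reads in replicate 1 and 0.0310% in replicate 2. All 79 detected ribosomal protein genes were lower in replicate 2 by library size, by a median of 0.23, and 78 with TMM or size factors. The 5 detected Hes and Hey genes, median −0.50, and the 7 Cdk inhibitors, median −0.23, were lower in replicate 2 under all 3 scalings. So were the 6 detected intermediate progenitor and proneural genes, median −0.29, the 4 Nfi genes, median −0.17, and the 3 detected midbrain and hindbrain genes, median −0.47. Of all 13040 detected genes, 8236 were lower in replicate 2 by library size, 6579 with TMM and 6878 with DESeq2's size factors. These short lists were named for their single direction, which therefore carries little weight, and Hes6 is in both the Hes and Hey and the proneural list. The neural stem cell and radial glia list went both ways, with 6 members higher in replicate 2 and 9 in replicate 1 by library size and 7 and 8 with TMM, and no member 2-fold apart. The share of unmapped reads was 11.2% in replicate 1 and 13.7% in replicate 2, and the part of library quality or culture conditions in these differences was not tested.

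**Figure D5:**
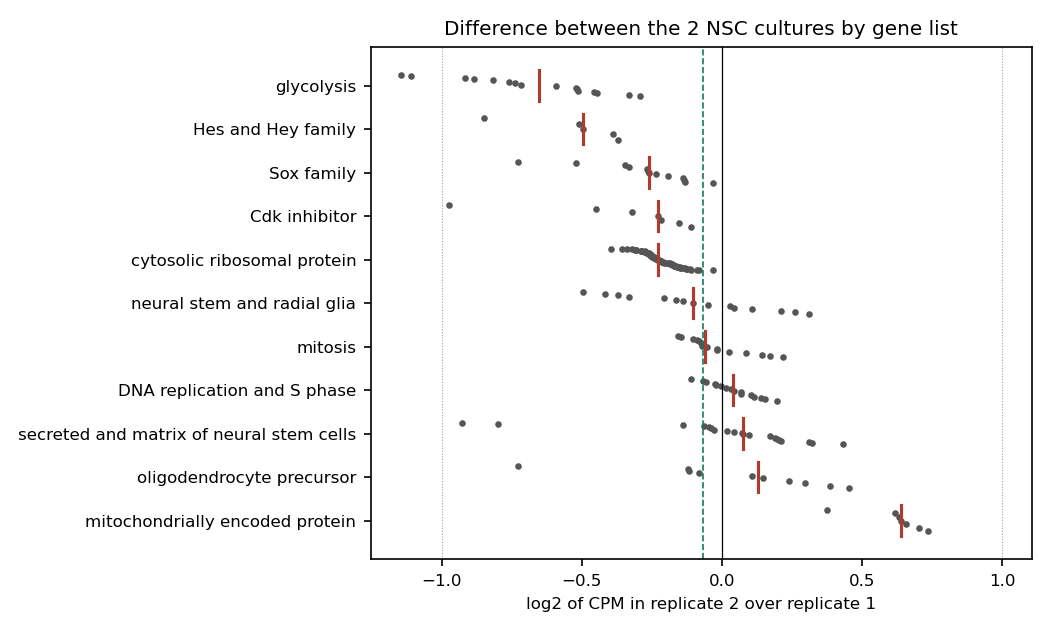
log2 of CPM in replicate 2 over replicate 1 for every detected member of 11 gene lists, with the list's median as a red bar, the median of all detected genes as a dashed line and 2-fold as dotted lines. The glycolysis genes lie left of 0, the mitochondrially encoded genes right of it, and the replication and mitosis genes around it.

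Genes expressed in NSC and genes that were not differed in the letters of their promoters. RefSeq windows of 300 bases, from 250 before to 50 after the start, matched by symbol for 16464 of the 21828 nuclear protein-coding genes, of which 9550 were detected and 6914 were not. The median GC content was 61.7% in detected and 49.0% in undetected genes, and the ratio of observed over expected CpG was 0.781 and 0.220. A ratio of at least 0.6 was found in 76.3% of detected and 13.7% of undetected genes, against 49.98% of all promoters. The GC box GGGCGG, on either strand, occurred in 67.2% of detected, 21.8% of undetected and 48.1% of all promoters, and TATAAA in 6.05%, 22.1% and 12.8%. CCAAT occurred in 39.2%, 37.9% and 38.7% in the same order. The words ACAAAG and ACAATG were in 12.8% and 6.90% of detected and 22.1% and 15.9% of undetected genes, against 16.7% and 10.7% of all promoters, and CAGCTG and GTGGGAA in 14.6% and 6.24% of detected genes against 15.3% and 6.24% of all.

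Among the detected genes the shares also varied with the level. TATAAA was in 6.45% of the 2141 promoters of genes under 10 TPM, in 5.58% of the 5990 from 10 to 100 TPM, in 7.14% of the 1358 from 100 to 1000 TPM and in 9 (14.8%) of the 61 at 1000 TPM or more. The median CpG ratio was 0.670, 0.802, 0.833 and 0.821 in the same order. The whole window of Fabp7 had a ratio of 0.276, below the median of 0.821 of its group and nearer to the 0.220 of undetected genes. Of 62 ribosomal protein genes with a window, 13 (21.0%) had a terminal oligopyrimidine start, a C at the annotated start followed by at least 4 pyrimidines, against 2.20% of all promoters. For the mitosis list, 12 of 13 windows held a CCAAT box, against 38.7% of all promoters. Of the 12 neural stem cell and radial glia genes with a window, 9 held one as well. These shares describe the sequences of genes chosen by expression or by list, and no test of them was made.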

How the data were processed

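Gene expression was measured by RNASeq (TruSeq RNA kit, HiSeq2000) in the 2 NSC cultures. After trimming (Trim Galore) and alignment to mm10 (STAR), the authors deposited raw counts of reads per gene. The version of STAR and the annotation are not given in the sources used here. The unstranded counts were used, since the kit does not mark strand and both strand columns held nearly equal totals. The summary rows, which hold reads without a gene, did not enter library sizes. They are the unmapped (11.2% and 13.7% of all reads), multi-mapped (4.56% and 4.78%), no-feature (8.41% and 8.18%) and ambiguous reads (3.64% and 3.50%).

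Of 50686 gene identifiers 50462 matched GENCODE vM21 (GRCm38), which gave symbols, RNA classes and exon lengths. CPM, TPM, counts of detected genes and shares were computed in Python 3.11.15, and the dispersion with edgeR 4.0.16 (DESeq2 1.42.0 for size factors) in R 4.3.3. The dispersion step was tested on simulated counts. Promoters were RefSeq windows of GRCm38.p6, 1 per gene.

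No groups were compared and no test was run. The genes named are the 20 most abundant by CPM and 10 by TPM, the 4 highest members and defining low members of each of 40 lists, all members of 7 small families, the most abundant gene of each RNA class and the 5 genes furthest apart between cultures in each direction. Prom1, Pdgfra, Aqp4, Dcx, Mbp, Dlx2, Fgfr2, Erbb4, Pfkl, Pfkp, Hk2, Rpl24, Rps3a1, Dbi, mt-Rnr1, mt-Rnr2, CT010467.1, Gm47283 and the neighbours of Gm42047 were named after their values were seen. So were Insm1, Aldh1l1, Slc1a2, S100b and Gja1. Members and lists were chosen with earlier results of these data known. Alternatives were other scalings, thresholds, lengths, columns and promoter windows, and each culture alone. The fatty acid binding protein sequences planned for printing are not shown. Some members of the lists are counted but not reported here by name.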

Additional observations from a re-analysis of the deposited data

How the results depend on the processing

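No paired analysis was possible because the NSC cultures form a single group and no result comes from a test. The number of detected genes lay between 10724 (at least 5 CPM) and 17671 (at least 0.1 CPM), against 13040 at 1 CPM. The members detected in the neural stem cell and radial glia, pan-telencephalic and Hox lists stayed at 15, 6 and 0 under every scaling, threshold, length, column and single culture tried. Values that moved included the share of reads on protein-coding genes, 96.5% with the stranded columns summed, the share of the 10 most abundant genes, 3.48% when counted over nuclear protein-coding genes, against 5.85%, the genes 2-fold apart between cultures, 2354 with a minimum of 1 read and 20 with 10 CPM, against 95, and the share of promoters with TATAAA at 100 TPM or more, 2.18% in the 100 bases before the start, against 7.47%. The median CpG ratio of promoters at 100 TPM or more moved from 0.833 to 0.852 with genes ranked by CPM and to 0.893 in the 100 bases. In that shorter window the TATAAA share was 11.5% in undetected and 1.95% in detected genes. The cause was not tested, other than that fewer genes or bases enter the stricter settings. Short lists moved with the threshold, such as the ventral telencephalon list from 7 to 1 detected members at 5 CPM and the ependymal list from 1 to 5 at 0.1 CPM. Agreement could not be computed without 1 of the cultures. With 2 cultures, the SD of each level is itself uncertain, and low genes rest on few reads.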
